A study of Mus musculus with 18 samples.

Results

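Retinas taken 7 days after a single intravitreal injection of triamcinolone were compared with retinas taken 7 days after an injection of the control solution. The comparison held 6 of the 18 arrays of the study: 3 TAA retinas and 3 BSS retinas at day 7. All probe sets that named exactly 1 gene were used, which was 34945 of the 45101 probe sets on the array and gave 18193 genes, each read from 1 probe set. All samples came from male C57BL6/J mice, 2 months old, kept on a normal light and dark cycle. Eyes were injected at day 0 with triamcinolone (TAA in the labels), with dexamethasone (DEX) or with BSS, which the labels call the control, and each retina was taken at day 7 or day 30. The design names 3 biological replicates in each of the 6 groups, and the labels used here give no dose for either drug. A retina without an injection was not analysed here, so the injection itself is common to every group.

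Triamcinolone and dexamethasone are synthetic glucocorticoids, used in the eye against macular oedema and inflammation. A glucocorticoid enters the cell and binds the glucocorticoid receptor (gene Nr3c1), which sheds its chaperones, moves to the nucleus and binds DNA, where it raises the transcription of genes such as Fkbp5, Tsc22d3, Per1 and Zbtb16. In the retina the receptor is prominent in Müller glia, the radial glial cells that take up glutamate, buffer potassium and water, and turn on glial filament genes after injury.

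The deposited values are relative. Each probe set had been set to a median of 0 over the 18 arrays, so a value of 1 stands for double the median array and no value is an expression level. For that reason the tissue label could not be checked against the levels of photoreceptor or glial markers. Values are on the log2 scale, arrays are listed in the order of replicates 1, 2 and 3, and each difference is TAA minus BSS with the standard error of the fit. Within groups the residual SD had a median of 0.179 over genes. The TAA day 7 arrays were less even in spread than the BSS arrays. Over all genes the values on TAA replicates 1, 2 and 3 had an SD of 0.223, 0.378 and 0.164. On the BSS replicates it was 0.163, 0.169 and 0.179. By correlation, neither group was uniform. Correlations over genes between TAA day 7 arrays ran from -0.144 to 0.139, while BSS replicates 2 and 3 correlated at 0.459 and BSS replicate 1 with them at -0.171 and -0.208. In whole retina, fewer cells of a type and less RNA per cell cannot be told apart.

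A single gene rose in TAA retinas after adjustment over all genes: Folh1, which encodes glutamate carboxypeptidase II, the membrane enzyme that splits N-acetylaspartylglutamate into N-acetylaspartate and glutamate and also trims folate polyglutamates. Relative expression of Folh1 was 1.60, 2.20 and 1.05 in TAA retinas, against -0.48, -0.31 and 0.03 in BSS retinas. Every TAA value lay above every BSS value, and the nearest arrays were TAA replicate 3 and BSS replicate 3. The difference was 1.87 ± 0.26, or 3.65-fold (limma, unadjusted p = 1.3e-06, adjusted p = 0.0236). No gene fell at an adjusted p of 0.05. Folh1 was 1 of 18193 genes higher at that threshold (0.0055%) and 0 were lower (0.0%). At an unadjusted p of at most 0.05, 381 genes were higher (2.09%) and 338 were lower (1.86%). The call rested on all 18 arrays sharing 1 estimate of spread, and with the 6 arrays alone the adjusted p was 0.998. Over all alternatives it ran from 0.00134 to 0.998, and the difference from 1.40 to 2.15. The adjusted p was 0.0819 without TAA replicate 1, 0.141 without TAA replicate 2, 0.00146 without TAA replicate 3, and 0.288, 0.235 and 0.0533 without BSS replicates 1, 2 and 3, where the difference lay between 1.58 and 2.15.

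The RefSeq window around the start of Folh1 is shown because this gene alone passed the test. It spans the annotated start, lies at chr7:86775815-86776114 on the minus strand of GRCm38.p6, and is printed 5′ to 3′ along the gene. A search of both strands found in it no full glucocorticoid response element (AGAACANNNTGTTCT), no single copy of its TGTTCT arm, no metal response core (TGCACNC or TGCGCNC) and no STAT site (TTCNNNGAA), so no letters are capitals. Of all 32851 such windows, 0.00913% held the full element, 19.0% the short element, 25.7% a metal core and 8.3% a STAT site. These letters describe the window only and were not tied to binding.
Folh1: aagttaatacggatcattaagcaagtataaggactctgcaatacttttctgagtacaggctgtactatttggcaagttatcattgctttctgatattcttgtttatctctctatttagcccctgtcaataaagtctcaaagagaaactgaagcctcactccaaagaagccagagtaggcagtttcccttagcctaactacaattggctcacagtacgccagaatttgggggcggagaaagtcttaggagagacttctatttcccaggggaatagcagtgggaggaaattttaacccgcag

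Few other genes of N-acetylaspartylglutamate and glutamate handling separated the groups. Of 19 genes measured, 3 had all TAA values above all BSS values and 0 had all below, against 792 of 18193 genes above (4.35%) and 903 below (4.96%). The other two were Glul, glutamine synthetase of Müller glia, and Rimklb, a synthetase of N-acetylaspartylglutamate. Glul values were 0.17, 0.00 and 0.27 in TAA retinas, against -0.09, -0.24 and -0.23 in BSS retinas, a difference of 0.33 ± 0.11 (adjusted p = 1), and 0.12 on the other probe set. Rimklb differed by 0.53 ± 0.30 on the probe set kept and by -0.09 to 0.31 on the 3 others. In the folate list, 14 genes were measured and Folh1 itself was the 1 gene that did not overlap. That list leaves out Aldh1l1, a folate enzyme kept in the astrocyte list and given below, which did not overlap either.

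With Folh1, 98 genes were higher and 52 lower at an unadjusted p of at most 0.01 with no overlap between the 6 arrays. The others did not pass after adjustment and are given by their values. A difference of at least 1 was reached by 12 of the 98, and none of the 52 reached -1. The list is led by an acute-phase protease inhibitor, a selenium-binding protein and a serum amyloid. Serpina3n, a secreted serine protease inhibitor made by reactive astrocytes, had values of 1.87, 3.30 and 0.40 in TAA retinas, against -0.40, -2.00 and -0.97 in BSS retinas and a difference of 2.98 ± 0.78 (adjusted p = 0.893). TAA replicate 2 was the highest array and TAA replicate 3 the nearest to the control. Selenbp1, the methanethiol oxidase, stood at 4.83, 1.19 and 1.43 in TAA retinas, against -0.19, 0.11 and 0.02 in BSS retinas, a difference of 2.50 ± 0.59; replicate 1 was far above the other two TAA arrays, the difference was 1.33 without it, and a second probe set gave 2.57. Saa3, a serum amyloid A, had 1.74, 3.20 and 0.61 in TAA retinas, against -0.24, -0.23 and -0.05 in BSS retinas, a difference of 2.02 ± 0.39 (adjusted p = 0.361).

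Prodh came nearest to Folh1 in the test. It encodes proline dehydrogenase, the mitochondrial enzyme that opens proline degradation toward glutamate. Its values were 1.41, 0.92 and 0.65 in TAA retinas, against -0.04, 0.10 and 0.03 in BSS retinas, with a clear gap between the groups, and a difference of 0.96 ± 0.16 (unadjusted p = 9.9e-06, adjusted p = 0.0897). Fam107a, an actin-associated protein known to respond to glucocorticoids, had 1.81, 0.83 and 0.73 in TAA retinas, against 0.19, -0.15 and -0.12 in BSS retinas, a difference of 1.15 ± 0.24; its other probe sets gave 0.79 and 0.59. Arrdc2, an arrestin-domain protein, had 0.77, 1.34 and 0.35 in TAA retinas, against -0.31, -0.30 and 0.01 in BSS retinas, a difference of 1.02 ± 0.21. In each of these genes the lowest TAA array still lay above the highest BSS array.

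TAA replicate 3 was the mildest of the treated arrays in this set. Of the 98 higher genes, replicate 1 held the highest value in 29, replicate 2 in 58 and replicate 3 in 11, and replicate 3 held the lowest TAA value in 65. Of the 52 lower genes, replicate 2 was farthest from the control in 31 and replicate 3 nearest in 37. Glycam1, a secreted mucin-like protein, was among the more even ones at 0.90, 1.07 and 0.45 in TAA retinas, against -0.11, -0.29 and -0.12 in BSS retinas, a difference of 0.98 ± 0.21. Ctla2b, a cathepsin inhibitor, was among the uneven ones: 0.58, 2.23 and 0.07 in TAA retinas, against -0.06, -0.29 and -0.02 in BSS retinas, a difference of 1.08 ± 0.37, and 0.45 without TAA replicate 2.

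**Figure D1:**
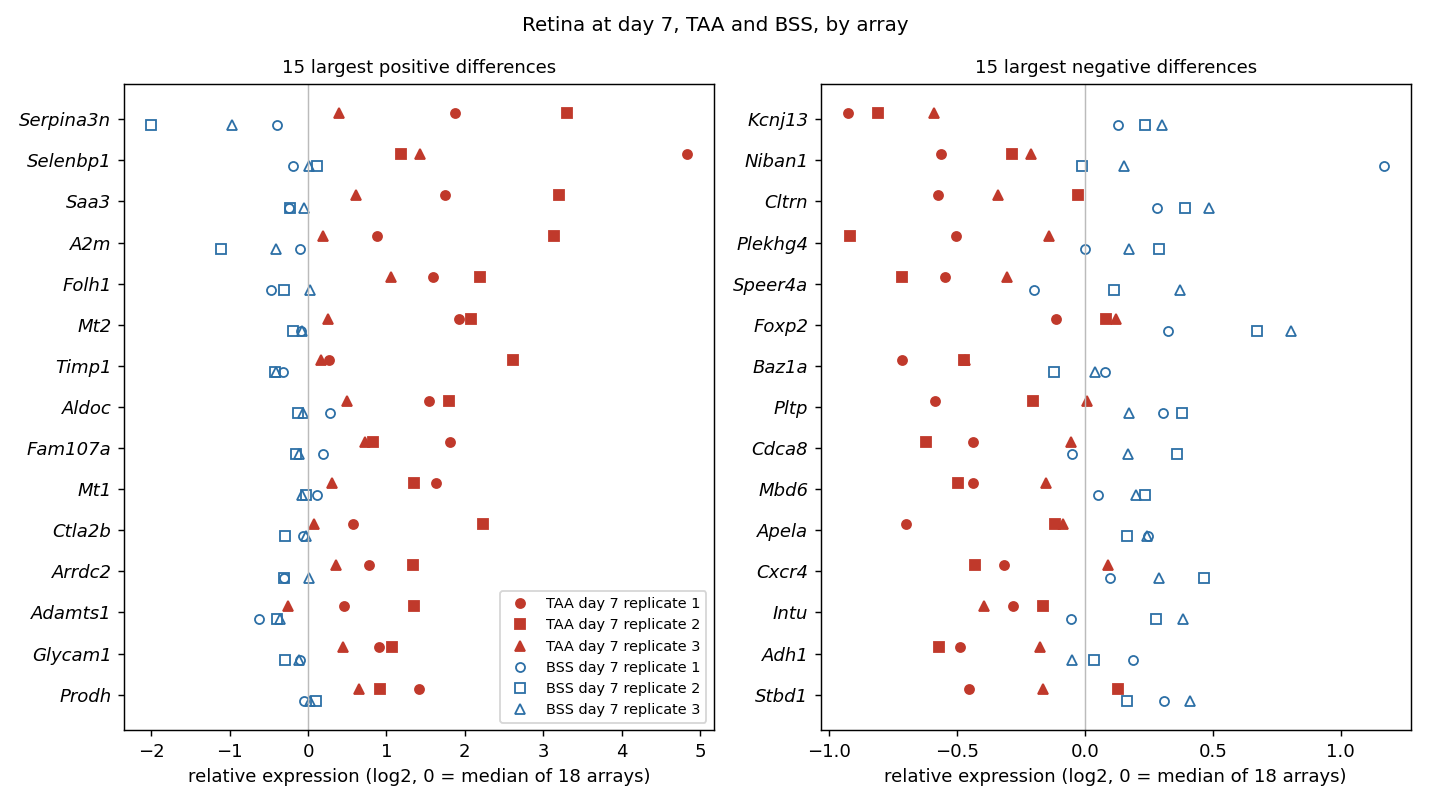
Relative expression on each of the 6 day 7 arrays (log2, 0 is the median of all 18 arrays) for the 15 largest positive (left) and 15 largest negative (right) differences among genes with an unadjusted p of at most 0.01 and no overlap; filled symbols are TAA retinas and open symbols BSS retinas. Serpina3n, Selenbp1, Saa3 and A2m spread widely over the TAA arrays, while a clear gap parts the groups for Folh1 and Prodh.

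Genes known to be induced by glucocorticoids had mostly positive differences at day 7, unevenly between genes. Of 36 genes measured, 15 had no overlap and were higher (4.35% of all genes) and 0 were lower; 28 had a difference above 0 (49.8% of all genes). Their median difference was 0.29, and that of all genes 0.00. The medians over the list were 0.32, 0.32 and 0.09 on the TAA arrays, against -0.04, -0.09 and -0.01 on the BSS arrays. No member passed after adjustment. Without TAA replicate 2, the array that spread most over all genes, the list median was 0.21, and 15 genes were higher and 1 lower without overlap (11.3% of all genes higher and 21.3% in either direction).

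Zbtb16 was the steadiest of the well-known members. It encodes PLZF, a zinc finger repressor, and had values of 1.21, 0.61 and 0.48 in TAA retinas, against -0.04, -0.02 and -0.11 in BSS retinas, a difference of 0.83 ± 0.16 (unadjusted p = 6.4e-05, adjusted p = 0.361); the other probe sets gave 0.25 and 0.38. Sult1a1, a phenol sulfotransferase, had 1.58, 0.64 and 0.34 in TAA retinas, against 0.13, -0.17 and 0.00 in BSS retinas, a difference of 0.87 ± 0.21, and 0.50 without TAA replicate 1. Bcl6, a transcriptional repressor, stood at 0.58, 0.88 and 0.07 in TAA retinas, against 0.05, -0.28 and -0.12 in BSS retinas, a difference of 0.62 ± 0.20, with 0.17 on the other probe set. None of these 3 genes overlapped between the groups, and replicate 3 gave the lowest TAA value in each.

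In several members 1 or 2 TAA arrays were far above the rest. Fkbp5, the receptor's own co-chaperone and a classical feedback target, had 1.92, 0.33 and 0.33 in TAA retinas, against 0.05, -0.04 and -0.06 in BSS retinas, a difference of 0.88 ± 0.29, and 0.35 without TAA replicate 1; its other probe sets gave 0.09 and 0.29. Cdkn1a, the p21 inhibitor of the cell cycle, had 3.04, 0.16 and 0.11 in TAA retinas, against -0.17, -0.16 and 0.04 in BSS retinas, a difference of 1.21 ± 0.49, and 0.24 without that array, while a second probe set gave 1.49. Lcn2, the iron carrier lipocalin 2, had 2.28, 3.43 and 0.18 in TAA retinas, against -0.62, -0.42 and -0.62 in BSS retinas, a difference of 2.52 ± 1.05. For Lcn2, TAA replicates 1 and 2 were far above replicate 3, which still lay above every BSS array. Cebpd, a transcription factor of the acute phase, had 1.14, 1.89 and 0.10 in TAA retinas, against -0.29, -0.45 and -0.30 in BSS retinas, a difference of 1.39 ± 0.60, and 0.61 on the other probe set.

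Other classical targets had differences near 0 or below it. Tsc22d3 encodes GILZ, which mediates anti-inflammatory actions of the receptor. Its values were 0.17, 0.33 and 0.26 in TAA retinas, against -0.03, 0.18 and 0.22 in BSS retinas, with overlap, and its difference was 0.13 ± 0.14, with -0.04 to 0.26 on the 3 other probe sets. Per1, a clock repressor with glucocorticoid response elements, had -0.11, 0.10 and -0.09 in TAA retinas, against -0.10, 0.26 and 0.00 in BSS retinas and a difference of -0.09 ± 0.12. Sgk1, the serum- and glucocorticoid-regulated kinase, had 0.00, -0.18 and 0.04 in TAA retinas, against -0.11, 0.09 and 0.00 in BSS retinas and a difference of -0.04 ± 0.11. The receptor gene itself, Nr3c1, stood at -0.22, -0.17 and -0.24 in TAA retinas, against 0.17, -0.23 and 0.10 in BSS retinas, a difference of -0.22 ± 0.14, with BSS replicate 2 inside the TAA range and -0.14 to 0.02 on its 5 other probe sets.

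**Figure D2:**
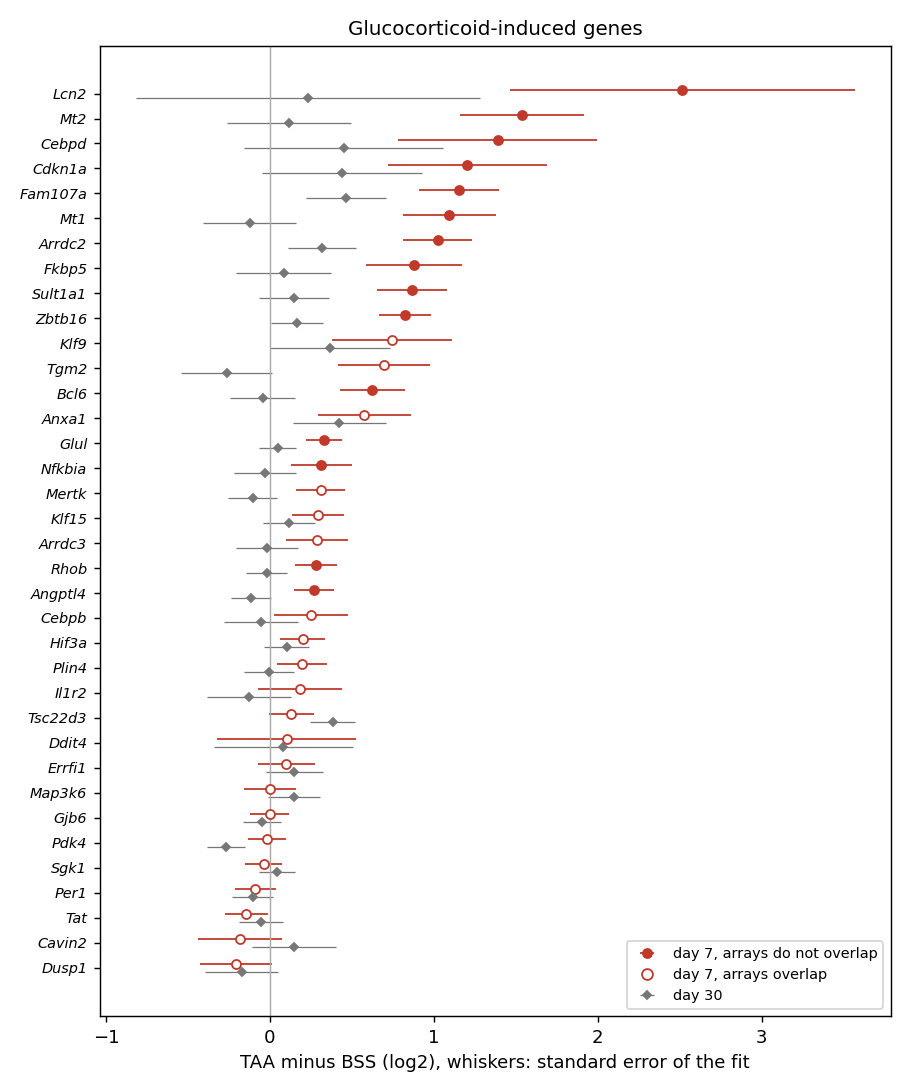
Difference TAA minus BSS (log2, horizontal axis) for the 36 measured glucocorticoid-induced genes, ordered by the day 7 difference; circles are day 7, filled where the 6 arrays do not overlap, diamonds are day 30, and whiskers are standard errors of the fit. 15 circles are filled and all lie to the right of 0, and the day 30 values centre near 0 with a median of 0.06.

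Sgk1 is also 1 of 3 genes in the genome table whose window held the full glucocorticoid response element, and its window is shown for that reason, with the element in capitals. The window lies at chr10:21993640-21993939 on the plus strand of GRCm38.p6, around 1 of 6 annotated starts of the gene.
Sgk1: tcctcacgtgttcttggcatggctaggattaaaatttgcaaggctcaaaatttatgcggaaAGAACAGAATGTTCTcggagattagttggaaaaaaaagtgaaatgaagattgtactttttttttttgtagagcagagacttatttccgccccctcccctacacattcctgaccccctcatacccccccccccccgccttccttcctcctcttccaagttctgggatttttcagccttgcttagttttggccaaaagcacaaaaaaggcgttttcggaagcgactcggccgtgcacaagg
Some genes have several windows that nearly coincide, so these shares are by gene. Of 32 glucocorticoid-induced genes with windows, 5 held the short element TGTTCT (15.6%), beside 21.3% of the 27025 genes with windows. Among the members that did not overlap it was 3 of 12 genes (25.0%).

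Metallothioneins, small zinc-binding proteins induced by metals and by glucocorticoids, were high on TAA replicates 1 and 2. Mt2 had 1.93, 2.08 and 0.26 in TAA retinas, against -0.09, -0.18 and -0.07 in BSS retinas, a difference of 1.54 ± 0.38 (adjusted p = 0.727). Mt1 had 1.63, 1.36 and 0.31 in TAA retinas, against 0.11, -0.03 and -0.08 in BSS retinas, a difference of 1.09 ± 0.28; its second probe set gave 0.10. Mt3, the form of neural tissue, had 1.01, 1.38 and -0.06 in TAA retinas, against 0.07, -0.01 and 0.00 in BSS retinas, a difference of 0.76 ± 0.23, and overlapped. TAA replicate 3 was near the control for each of them, and without that array the differences were 2.12 for Mt2 and 1.18 for Mt3. Of 19 measured genes of metal handling, 3 did not overlap and were higher (4.35% of all genes), and 2 did not overlap and were lower (4.96%).

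The promoter windows of Mt1 and Mt2 are shown because both genes were high on the same TAA arrays and because their metal response cores are well known. Capitals mark the cores (TGCACNC or TGCGCNC, either strand), of which 3 were found in Mt1 and 4 in Mt2; neither window held TGTTCT on either strand. The Mt1 window is chr8:94178839-94179138 and the Mt2 window chr8:94172368-94172667, both on the plus strand of GRCm38.p6 (RefSeq).
Mt1: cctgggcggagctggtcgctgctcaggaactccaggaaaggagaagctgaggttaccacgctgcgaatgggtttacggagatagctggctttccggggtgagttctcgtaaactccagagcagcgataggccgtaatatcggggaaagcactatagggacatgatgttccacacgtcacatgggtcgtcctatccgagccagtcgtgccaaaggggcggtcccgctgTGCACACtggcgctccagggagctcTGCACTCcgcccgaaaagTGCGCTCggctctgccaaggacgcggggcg
Mt2: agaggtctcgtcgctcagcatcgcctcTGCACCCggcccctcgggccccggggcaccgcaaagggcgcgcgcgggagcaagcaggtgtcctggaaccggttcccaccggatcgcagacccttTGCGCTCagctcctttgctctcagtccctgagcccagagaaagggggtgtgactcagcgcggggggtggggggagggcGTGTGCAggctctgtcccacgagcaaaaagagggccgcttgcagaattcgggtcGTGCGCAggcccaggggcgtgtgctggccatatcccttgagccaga

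Genes of acute-phase proteins and protease inhibitors had mostly positive differences. Of 23 genes measured, 8 had no overlap and were higher (4.35% of all genes), 1 had no overlap and was lower (4.96%), and 20 had a difference above 0 (49.8%). The median difference was 0.26, and 0.30 without TAA replicate 2, where 13 genes were higher (11.3% of all genes) and 1 lower. On the arrays the list had medians of 0.26, 0.11 and 0.08 in TAA retinas, against -0.07, -0.19 and -0.19 in BSS retinas. Serpina3n and Saa3, given above, belong to it. A2m, the broad protease trap alpha-2-macroglobulin, had 0.87, 3.14 and 0.19 in TAA retinas, against -0.10, -1.11 and -0.40 in BSS retinas, a difference of 1.94 ± 0.54, and 1.07 without TAA replicate 2. Timp1, an inhibitor of matrix metalloproteinases, had 0.26, 2.61 and 0.17 in TAA retinas, against -0.32, -0.42 and -0.41 in BSS retinas, a difference of 1.40 ± 0.48, with TAA replicate 2 far above the others and 0.60 without it.

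Fgb and Lrg1 had smaller differences, and Cp an uneven one. Fgb, the fibrinogen beta chain, had 0.25, 0.24 and 0.16 in TAA retinas, against -0.09, -0.19 and -0.14 in BSS retinas, a difference of 0.36 ± 0.09, and leaving out any 1 array kept it between 0.33 and 0.39. Lrg1, a leucine-rich glycoprotein that acts on vessels, had 0.65, 0.25 and 0.20 in TAA retinas, against -0.07, -0.05 and -0.12 in BSS retinas, a difference of 0.45 ± 0.13. Cp, the ferroxidase ceruloplasmin, had 0.83, 2.23 and -0.20 in TAA retinas, against -0.18, -0.46 and -0.28 in BSS retinas, a difference of 1.26 ± 0.43, with TAA replicate 3 level with the control, 0.62 without TAA replicate 2 and 0.08 to 1.29 on the 7 other probe sets. The 1 lower member was Itih3, an inter-alpha-trypsin inhibitor heavy chain, at -0.17, -0.36 and -0.12 in TAA retinas, against 0.23, 0.01 and 0.20 in BSS retinas and -0.37 ± 0.12. Of 19 genes of this list with windows, 5 held a STAT site (26.3%), beside 9.55% of all genes with windows.

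Glial filament and reactive gliosis genes were high on 1 TAA array. Of 25 measured, 6 had no overlap and were higher (4.35% of all genes) and 0 were lower (4.96%). The list's array medians were 0.06, 0.67 and -0.06 in TAA retinas, against -0.02, -0.15 and 0.02 in BSS retinas, and TAA replicate 2 held the highest TAA value in 23 of 25 genes. The median difference was 0.23 with all arrays and 0.00 without that array, where 6 genes were higher and 3 lower without overlap. Among all genes 2047 of 18193 were then higher (11.3%) and 1827 lower. Gfap, the intermediate filament of astrocytes and stressed Müller glia, had 0.77, 2.11 and 0.01 in TAA retinas, against -0.06, -0.76 and 0.11 in BSS retinas, a difference of 1.20 ± 0.40, and 0.63 without TAA replicate 2; its other probe sets gave 0.47 and 1.05. Vim, vimentin of Müller glia, had 0.40, 1.39 and 0.01 in TAA retinas, against -0.02, -0.35 and -0.01 in BSS retinas, a difference of 0.73 ± 0.29, and 0.34 without that array. Cd44, the hyaluronan receptor, had -0.12, 1.89 and -0.06 in TAA retinas, against -0.38, -0.40 and -0.18 in BSS retinas, a difference of 0.89 ± 0.38, and 0.23 without replicate 2, which was far above the other TAA arrays; its 3 other probe sets gave -0.12 to 1.04. Egfr, the receptor for epidermal growth factor, had 0.73, 1.22 and 0.22 in TAA retinas, against -0.06, -0.12 and 0.12 in BSS retinas, a difference of 0.74 ± 0.23, with -0.17 to 0.60 on the 6 other probe sets.

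Genes of unstressed glia gave mixed values. Of 13 astrocyte genes measured, 3 did not overlap and were higher (4.35% of all genes), 0 were lower (4.96%), and 7 had a difference above 0 (49.8%). Differences in the list ran from -1.12 for Gja1, a gap junction protein whose groups overlapped, to 1.25 for Aldoc. Aldoc, the glycolytic aldolase of astrocytes and Müller glia, had 1.55, 1.80 and 0.50 in TAA retinas, against 0.28, -0.12 and -0.07 in BSS retinas, a difference of 1.25 ± 0.29, but its other probe set gave 0.20. Aldh1l1, a folate enzyme that marks astrocytes, had 0.93, 1.27 and 0.24 in TAA retinas, against -0.25, -0.19 and 0.04 in BSS retinas, a difference of 0.95 ± 0.23, but its other probe set gave 0.03. Of 26 Müller glia genes, 4 were higher and 2 lower without overlap, with a median difference of 0.04. Cd9, a tetraspanin, had 0.16, 0.90 and 0.07 in TAA retinas, against -0.27, -0.31 and -0.26 in BSS retinas, a difference of 0.65 ± 0.20, and 0.39 without TAA replicate 2. Clu, the chaperone clusterin, had 0.16, 1.01 and 0.11 in TAA retinas, against -0.13, -0.18 and -0.05 in BSS retinas, a difference of 0.55 ± 0.21, and 0.26 without that array.

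Water and potassium channels of Müller glia, which set retinal fluid balance, overlapped between the groups. Aqp4, the water channel, had -0.54, 1.06 and -0.04 in TAA retinas, against -0.33, -0.26 and -0.13 in BSS retinas, a difference of 0.40 ± 0.27, which was -0.05 without TAA replicate 2; its other probe sets gave 0.28 and 0.12. Kcnj10, the potassium channel Kir4.1, had -0.20, 0.57 and 0.01 in TAA retinas, against -0.02, 0.18 and -0.01 in BSS retinas, a difference of 0.08 ± 0.18. Of 19 water and ion transport genes, 1 was higher (4.35% of all genes) and 1 lower (4.96%) without overlap.

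**Figure D3:**
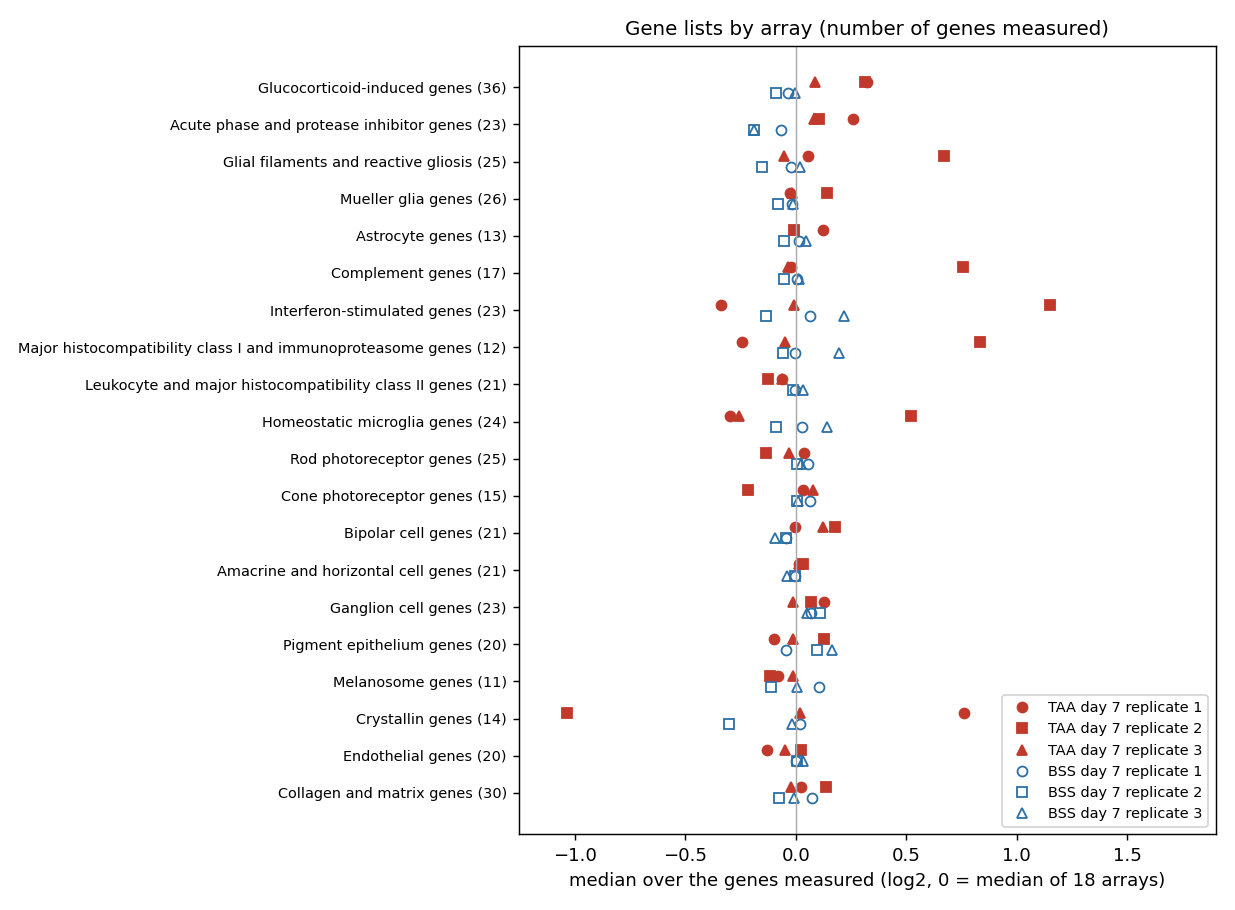
Median over the measured genes of 20 gene lists (log2, 0 is the median of all 18 arrays) on each day 7 array; filled symbols are TAA retinas, open symbols BSS retinas, and the number of genes measured is in parentheses. TAA replicate 2 stands far to the right for gliosis (0.67), complement (0.76), class I (0.84) and interferon (1.15) genes and far to the left for crystallins (-1.04). The glucocorticoid-induced and acute-phase lists have all 3 TAA arrays to the right of the BSS arrays. So do the bipolar cell list and the amacrine and horizontal cell list, by narrower gaps.

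Vascular growth genes gave differences in both directions. Of 26 genes of the Vegf and hypoxia list, 3 were higher (4.35% of all genes) and 2 lower (4.96%) without overlap. A difference above 0 was seen in 9 (49.8% of all genes). Vegfa, the permeability and growth factor, had -0.04, -0.08 and -0.27 in TAA retinas, against 0.00, 0.03 and 0.09 in BSS retinas, a difference of -0.17 ± 0.15 (adjusted p = 1); its groups did not overlap, although the gap between TAA replicate 1 and BSS replicate 1 was small, and its other probe set gave 0.06. Flt1, a Vegf receptor that also acts as a decoy, had 0.49, 1.05 and 0.21 in TAA retinas, against 0.02, -0.02 and 0.04 in BSS retinas, a difference of 0.57 ± 0.19, and 0.34 without TAA replicate 2. Angpt1, an angiopoietin that tightens vessels, had 0.06, 0.75 and 0.10 in TAA retinas, against -0.29, -0.44 and 0.01 in BSS retinas, a difference of 0.54 ± 0.17, 0.32 without that array and 0.11 on the other probe set. Adm, the vasodilator adrenomedullin, had 0.07, -0.35 and -0.13 in TAA retinas, against 0.18, 0.50 and 0.27 in BSS retinas, a difference of -0.45 ± 0.18.

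Among 20 barrier genes 2 were higher and 1 lower without overlap. Cldn12, a claudin, was 1 of the higher ones at 0.28, 0.69 and 0.12 in TAA retinas, against -0.07, 0.01 and -0.02 in BSS retinas, a difference of 0.39 ± 0.14, 0.23 without TAA replicate 2 and 0.14 on the other probe set. Of 20 endothelial genes 1 was higher and 2 lower, and of 16 pericyte and smooth muscle genes none was without overlap (4.35% higher and 4.96% lower over all genes). Adamts1, a secreted protease that cleaves matrix proteoglycans, had 0.46, 1.35 and -0.25 in TAA retinas, against -0.63, -0.40 and -0.36 in BSS retinas, a difference of 0.98 ± 0.27, and 0.56 without TAA replicate 2.

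Interferon-stimulated, class I and microglial genes were high on TAA replicate 2. Of 23 interferon-stimulated genes measured, 20 had a difference above 0 (49.8% of all genes) and none was without overlap. The array medians were -0.34, 1.15 and -0.01 in TAA retinas, against 0.06, -0.14 and 0.22 in BSS retinas. Replicate 2 held the highest TAA value in 22 of the 23, and replicate 1 the lowest in 19. The 12 class I and immunoproteasome genes had medians of -0.24, 0.84 and -0.05 in TAA retinas, against -0.01, -0.06 and 0.19 in BSS retinas, and the 17 complement genes -0.02, 0.76 and -0.03 in TAA retinas, against 0.01, -0.05 and 0.02 in BSS retinas. Homeostatic microglia genes, 24 measured, had -0.30, 0.52 and -0.26 in TAA retinas, against 0.03, -0.09 and 0.14 in BSS retinas. With all arrays the median difference was 0.11 for the interferon-stimulated list and -0.07 for the microglial list, in which 2 of 24 genes were lower (4.96% of all genes) and 0 higher without overlap. Without replicate 2, a setting chosen after the data were seen, the medians were -0.23 and -0.29, and 14 microglial genes were lower and 1 higher without overlap, while 1827 of all 18193 genes were lower. The microglial medians were below 0 on TAA replicates 1 and 3 and above 0 on replicate 2, and the part of these cells in the values of other lists was not tested.

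A few immune genes were lower on every TAA array, and others were higher. Siglech, a lectin of microglia, had -0.29, -0.42 and -0.14 in TAA retinas, against 0.00, 0.21 and 0.00 in BSS retinas, a difference of -0.35 ± 0.11. Cx3cr1, the fractalkine receptor of microglia, had -1.43, -0.35 and -0.29 in TAA retinas, against 0.15, -0.18 and 0.09 in BSS retinas, a difference of -0.71 ± 0.29, and -0.34 without TAA replicate 1, but its other probe set gave 0.00. Cd74, the invariant chain of class II, had -0.16, -0.25 and -0.37 in TAA retinas, against 0.29, 0.14 and 0.24 in BSS retinas, a difference of -0.49 ± 0.25. It was 1 of 3 genes lower without overlap among 21 leukocyte and class II genes (4.96% of all genes). Cxcr4, the receptor of the chemokine Cxcl12, had -0.31, -0.43 and 0.09 in TAA retinas, against 0.10, 0.47 and 0.29 in BSS retinas, a difference of -0.50 ± 0.17. Of 31 inflammatory cytokine and adhesion genes 4 were higher (4.35% of all genes) and 2 lower (4.96%) without overlap. Il18, a cytokine, had the highest difference of that list, 0.51. Its values were 0.13, 1.09 and 0.24 in TAA retinas, against -0.02, -0.05 and 0.015 in BSS retinas. None of these genes passed after adjustment.

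Photoreceptor genes had differences mostly below 0. Of 25 rod genes measured, 4 had no overlap and were lower (4.96% of all genes), 0 were higher (4.35%), and 6 had a difference above 0 (49.8%). Array medians were 0.04, -0.135 and -0.03 in TAA retinas, against 0.06, 0.005 and 0.02 in BSS retinas. The median difference was -0.07, and -0.04 without TAA replicate 2. In that setting 5 rod genes were lower and 1 higher without overlap, beside 1827 and 2047 of all 18193 genes. Gucy2e, the guanylate cyclase that restores cGMP in the outer segment, had -0.06, -0.45 and -0.19 in TAA retinas, against 0.15, 0.15 and -0.01 in BSS retinas, a difference of -0.33 ± 0.12. Rcvrn, the calcium sensor recoverin, had -0.23, -0.42 and -0.17 in TAA retinas, against 0.07, 0.01 and -0.06 in BSS retinas, a difference of -0.28 ± 0.16, and Abca4, the retinoid flippase of the disc rim, had -0.23 ± 0.14. TAA replicate 2 was the lowest of the 3 TAA arrays in each of these genes. The lowest difference of the rod list was -0.43. Of 15 cone genes, 1 was lower (4.96% of all genes) and 0 higher (4.35%) without overlap, and 4 had a difference above 0 (49.8%). Pde6h had the lowest difference of the cone list, -0.58, and -0.62 on its other probe set. Its values were -0.54, -0.84 and 0.105 in TAA retinas, against 0.12, 0.17 and 0.17 in BSS retinas.

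Genes of bipolar cells had mostly positive differences. Of 21 bipolar cell genes, 2 were higher (4.35% of all genes) and 0 lower (4.96%) without overlap, and 17 had a difference above 0 (49.8%). The median difference was 0.12. Vsx1, a homeobox gene of cone bipolar cells, had 0.28, 0.49 and 0.06 in TAA retinas, against -0.01, -0.35 and -0.20 in BSS retinas, a difference of 0.46 ± 0.14, and 0.26 on the other probe set. Scgn, the calcium-binding protein secretagogin of cone bipolar cells, had 0.22, 0.03 and 0.34 in TAA retinas, against -0.08, -0.25 and -0.13 in BSS retinas, a difference of 0.35 ± 0.14. Gabrr1, the rho subunit of the GABA receptor on bipolar terminals, had 0.17, 0.10 and 0.17 in TAA retinas, against -0.20, -0.07 and -0.09 in BSS retinas, a difference of 0.27 ± 0.09, and is in the synapse list. Of 21 amacrine and horizontal cell genes 1 was higher without overlap, and of 23 ganglion cell genes 1 was lower.

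Genes of tissue next to the retina also differed between arrays. Kcnj13, the potassium channel Kir7.1 of the pigment epithelium, had the largest negative difference among the 52 lower genes: -0.93, -0.81 and -0.59 in TAA retinas, against 0.13, 0.24 and 0.30 in BSS retinas, -0.997 ± 0.22 (unadjusted p = 2.5e-04, adjusted p = 0.494), with little spread within either group. Pltp, the phospholipid transfer protein, had -0.58, -0.20 and 0.01 in TAA retinas, against 0.31, 0.38 and 0.17 in BSS retinas, a difference of -0.55 ± 0.17, and -0.27 on the other probe set. Stra6, the retinol-binding protein receptor, had -0.28 ± 0.12, and -0.17 without TAA replicate 3. The 20 pigment epithelium genes had array medians of -0.10, 0.13 and -0.01 in TAA retinas, against -0.04, 0.10 and 0.16 in BSS retinas. Without overlap, 0 were higher (4.35% of all genes) and 3 lower (4.96%). Differences in the list ran from -0.997 to 0.40, and 9 of the 20 were above 0 (49.8% of all genes). The 11 melanosome genes had medians of -0.08, -0.12 and -0.01 in TAA retinas, against 0.11, -0.11 and 0.01 in BSS retinas. Their differences ran from -0.93 to 0.20, and 3 were above 0 (49.8% of all genes). BSS replicate 1 was far above the other arrays for some members. Tyrp1 had -0.91, 0.41 and -0.01 in TAA retinas, against 2.39, -0.31 and 0.01 in BSS retinas. Dct, Mlana and Pmel stood at 2.37, 2.11 and 1.72 on that BSS array. Crystallin genes, 14 measured, varied by far more, with medians of 0.76, -1.04 and 0.02 in TAA retinas, against 0.02, -0.30 and -0.02 in BSS retinas. How much adjacent tissue entered each dissection, and its part in these differences, was not tested.

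Matrix genes included several higher members. Of 30 measured, 5 were higher (4.35% of all genes) and 1 lower (4.96%) without overlap. The median difference was 0.05, and -0.004 without TAA replicate 2. Col18a1, a collagen chain, had the lowest difference of the list, -0.62, and -0.46 on its other probe set. Its groups overlapped. Mgp, matrix Gla protein, had 0.88, 0.87 and 0.22 in TAA retinas, against 0.06, -0.06 and 0.06 in BSS retinas, a difference of 0.64 ± 0.22. Postn, the matricellular protein periostin, had 0.45 ± 0.17, and Col3a1, a fibrillar collagen, had 0.82, 1.19 and 0.89 in TAA retinas, against 0.29, -0.02 and -0.05 in BSS retinas, a difference of 0.89 ± 0.44, but -0.04 on the other probe set. Gadd45b, a stress gene of the growth arrest list, had 2.07, 0.37 and 0.04 in TAA retinas, against -0.04, -0.73 and -0.51 in BSS retinas, a difference of 1.25 ± 0.45, and 0.63 without TAA replicate 1, with TAA replicate 3 close to BSS replicate 1. In that list 2 of 21 genes did not overlap and were higher (4.35% of all genes). Gstm1, a glutathione transferase, had 1.02, 0.40 and 0.30 in TAA retinas, against 0.06, -0.40 and -0.39 in BSS retinas, a difference of 0.82 ± 0.27, with 0.24 to 0.73 on the 3 other probe sets. It is in the list of 21 oxidative stress genes, of which 2 were higher (4.35% of all genes) and 1 lower (4.96%) without overlap.

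**Figure D4:**
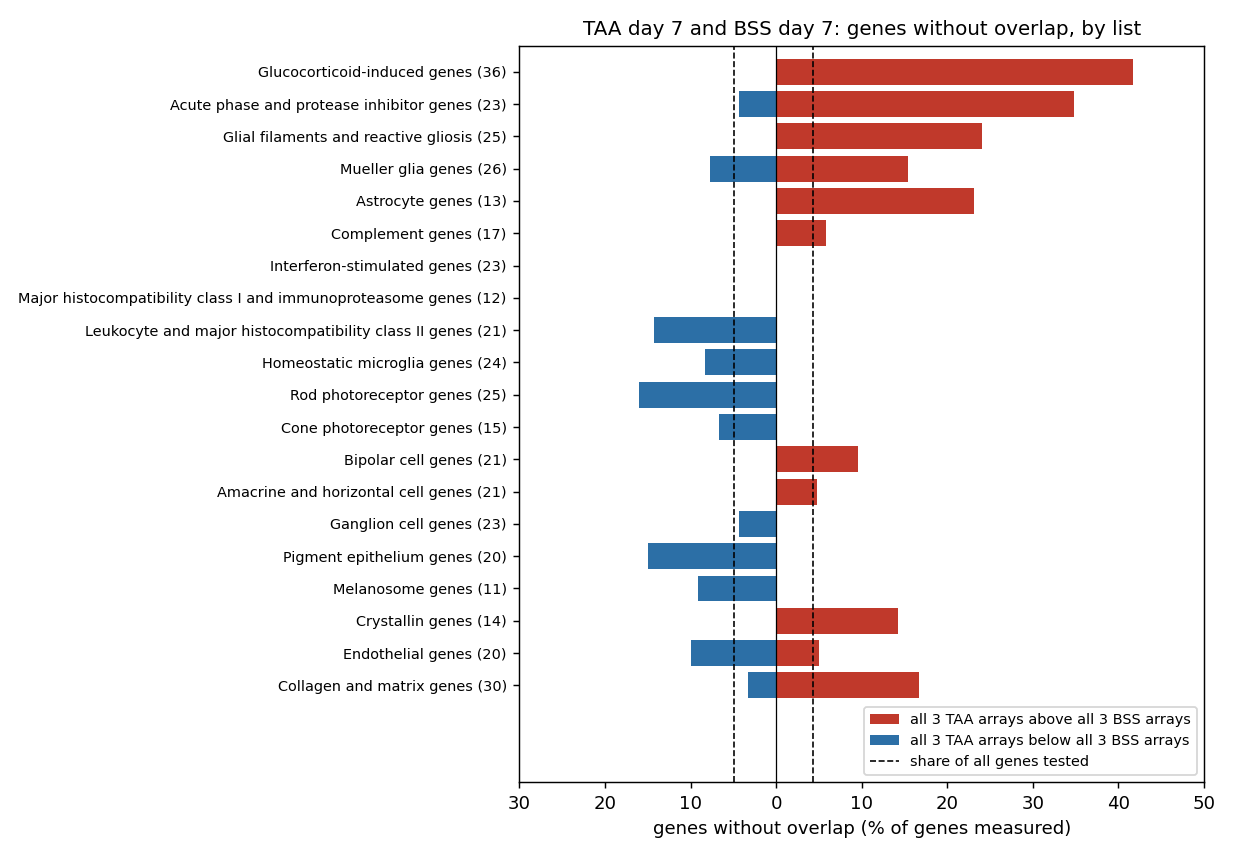
Share of the measured genes of 20 lists (percent, horizontal axis) whose 3 TAA day 7 arrays all lie above (red, to the right of 0) or all below (blue, to the left) the 3 BSS day 7 arrays, with dashed lines at the shares of all genes tested, 4.35% above and 4.96% below. Glucocorticoid-induced, acute-phase, gliosis and astrocyte genes reach furthest to the right, and rod, pigment epithelium and class II genes furthest to the left.

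The other lists held between 0 and 4 genes without overlap in a direction, beside 4.35% of all genes higher and 4.96% lower. The 20 circadian clock genes, 20 respiratory chain genes and 5 erythrocyte genes had none without overlap. Of 17 genes of cholesterol synthesis 1 was higher and 3 lower, and of 20 immediate early genes 2 were higher and 2 lower. Of 20 gp130 and Stat3 genes 0 were higher and 2 lower without overlap, but 14 had a difference above 0 (49.8% of all genes). Differences in that list ran from -0.28 to 0.94 for Socs3. Its value on TAA replicate 2 was 2.62, and its groups overlapped. Of 19 cytosolic ribosomal protein genes 4 were higher and 1 lower. Of 17 genes of the receptor, its chaperones and cofactors 2 were higher and 0 lower. In the lists for other lens genes, the ocular surface, steroid glaucoma, heat shock, glucose and lipid metabolism, neuropeptides and the cell cycle, at most 2 genes were higher and at most 1 lower.

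Genes with negative differences were more modest and varied in role. Niban1, a stress-induced regulator of translation, had -0.56, -0.28 and -0.21 in TAA retinas, against 1.17, -0.01 and 0.15 in BSS retinas, a difference of -0.79 ± 0.26, which was -0.42 without BSS replicate 1 and -0.34 on the other probe set. Cltrn, collectrin, a partner of amino acid transporters, had -0.57, -0.03 and -0.34 in TAA retinas, against 0.28, 0.39 and 0.49 in BSS retinas, a difference of -0.70 ± 0.23. Baz1a, a subunit of a chromatin remodelling complex, had -0.71, -0.47 and -0.47 in TAA retinas, against 0.08, -0.12 and 0.04 in BSS retinas, a difference of -0.55 ± 0.15, while its other probe set gave -0.06. Foxp2, a forkhead transcription factor, had -0.11, 0.09 and 0.12 in TAA retinas, against 0.32, 0.67 and 0.81 in BSS retinas, a difference of -0.57 ± 0.16, and its 5 other probe sets lay between -0.22 and 0.00. Where probe sets of a gene disagree, the value belongs to the probe set kept and not to every transcript.

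At day 30 the arrays are other retinas, with their own BSS controls, so this comparison shares no array with day 7. No gene passed after adjustment (0 higher and 0 lower, 0.0% each), with 1318 genes at an unadjusted p of at most 0.05 (7.24%), and no gene's TAA effect differed between the days after adjustment (0 of 18193, 0.0%, with 1094 at an unadjusted p of at most 0.05, 6.01%). Folh1 had 0.07, 0.86 and 0.08 in TAA retinas, against -0.16, -0.55 and 0.12 in BSS retinas; the groups overlapped, and the difference was 0.53 ± 0.26 (adjusted p = 0.691). Its day 30 minus day 7 effect was -1.33 ± 0.36, with adjusted p = 0.711. Selenbp1 had 0.73, 1.10 and 0.12 in TAA retinas, against -0.27, -0.68 and -0.36 in BSS retinas, a difference of 1.09 ± 0.59, without overlap. Prodh had 0.31, -0.05 and -0.01 in TAA retinas, against -0.17, -0.33 and -0.17 in BSS retinas, a difference of 0.31 ± 0.16, also without overlap.

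Of the 98 genes higher at day 7, 56 had a day 30 difference above 0 (44.2% of all genes) and 8 had no overlap and were higher (5.86% of all genes). Those 8 included Selenbp1, Arrdc2 and Prodh, and Cdkn1a, which is not among the 98, also did not overlap at either day. Of the 52 lower genes, 23 were below the control at day 30, a day when 8037 of all 18193 genes (44.2%) were above it. So the 52 were not below the control more often than all genes. Baz1a and Itih3, 2 of the 52, had no overlap and were lower (7.54% of all genes). Median day 30 differences were 0.04 for the 98 and 0.02 for the 52, and -0.03 for all genes. The glucocorticoid-induced list had a median of 0.06 at day 30, with 3 genes higher and 3 lower without overlap, and the acute-phase list -0.04. Saa3 (-0.04), Mt2 (0.12), Zbtb16 (0.17) and Fgb (0.01) had day 30 differences smaller than those of day 7, a change that did not pass the test for any of them.

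**Figure D5:**
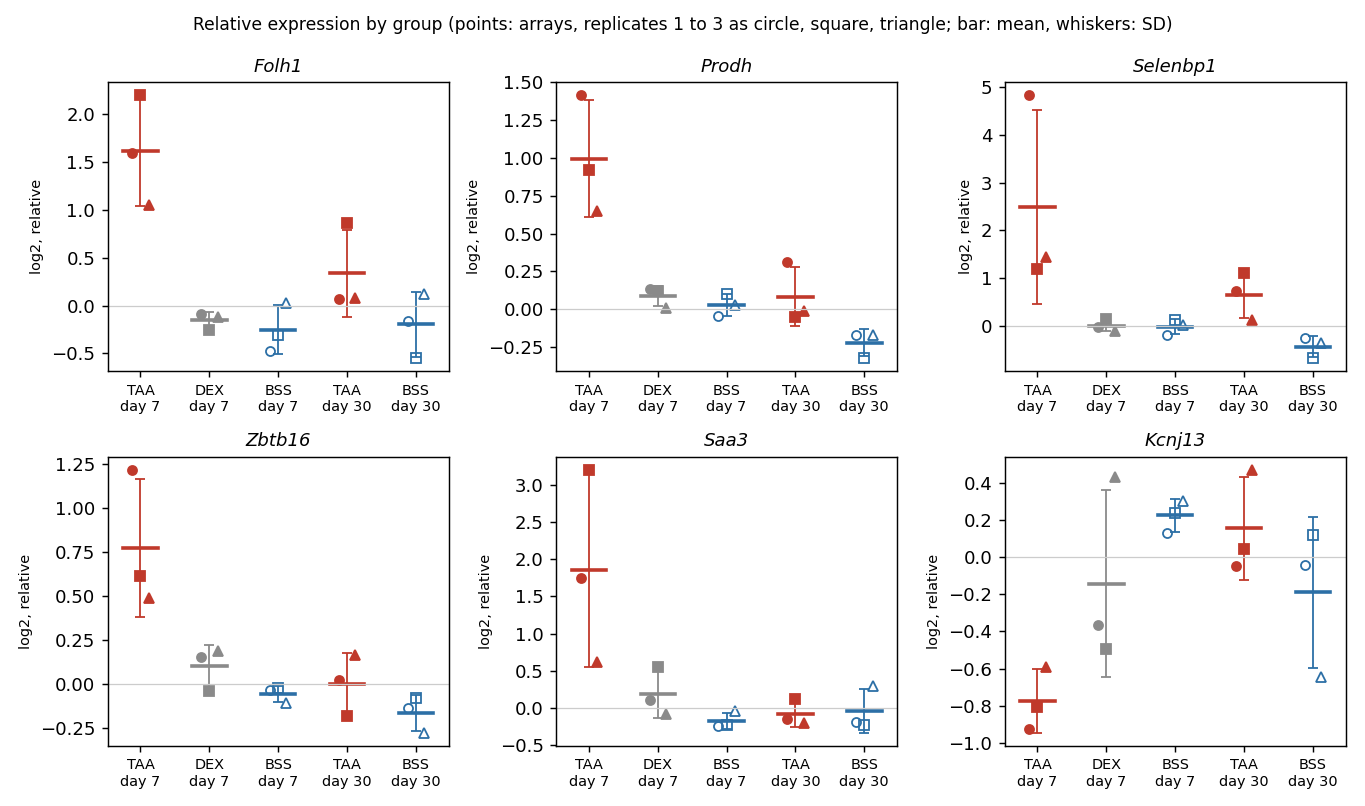
Relative expression (log2, vertical axis) of Folh1, Prodh, Selenbp1, Zbtb16, Saa3 and Kcnj13 on each array of 5 groups; points are arrays, bars are means and whiskers are SDs (n = 3 each). TAA day 7 stands apart from DEX day 7 and BSS day 7 for Folh1 and Prodh, and at day 30 the mean of the TAA arrays lies closer to that of the BSS arrays in each of the 6 genes.

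Dexamethasone retinas at day 7 were set against the TAA retinas directly. The labels give no dose for either drug, so equal exposure cannot be assumed. Folh1 was higher in TAA retinas: 1.60, 2.20 and 1.05 in TAA retinas, against -0.09, -0.26 and -0.12 in DEX retinas, a difference of 1.77 (95% interval 1.23 to 2.32) with adjusted p = 0.0472. It was the 1 gene of 18193 that passed and was higher (0.0055%), and 0 were lower (0.0%). This comparison uses the same TAA arrays as the one against BSS and is no separate support for it. No other gene passed, with 1177 at an unadjusted p of at most 0.05 (6.47%). With the compared groups alone Folh1 did not pass here.

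For the other genes the interval of the difference between the drugs is given, unadjusted for the number of genes. Prodh was 1.41, 0.92 and 0.65 in TAA retinas, against 0.13, 0.12 and 0.01 in DEX retinas, a difference of 0.91 (95% interval 0.57 to 1.24). Zbtb16 was 1.21, 0.61 and 0.48 in TAA retinas, against 0.15, -0.04 and 0.18 in DEX retinas, a difference of 0.67 (95% interval 0.34 to 1.004). Selenbp1 differed by 2.48 (95% interval 1.23 to 3.74), and Saa3 by 1.66 (95% interval 0.83 to 2.49). For Tsc22d3 the difference was 0.20 (95% interval -0.09 to 0.49), for Per1 0.06 (95% interval -0.20 to 0.33) and for Fgb 0.17 (95% interval -0.03 to 0.37). Serpina3n values were 1.87, 3.30 and 0.40 in TAA retinas, against 0.51, 0.95 and 0.48 in DEX retinas, and the interval was wide, 1.21 (95% interval -0.43 to 2.85).

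Against the shared BSS arrays, the 2 drugs gave the following differences side by side. Folh1 differed by 1.87 for TAA and 0.10 for DEX, Prodh by 0.96 for TAA and 0.06 for DEX, and Selenbp1 by 2.50 for TAA and 0.02 for DEX. Serpina3n gave 2.98 for TAA and 1.77 for DEX, and Vsx1 0.46 for TAA and 0.39 for DEX. The glucocorticoid-induced list had a median of 0.29 for TAA and 0.06 for DEX, and the acute-phase list 0.26 for TAA and 0.16 for DEX. The gliosis list had 0.23 for TAA and 0.21 for DEX. Set directly against DEX retinas, TAA minus DEX was 0.24 for Cebpd (95% interval -1.04 to 1.51) and 0.13 for Cp (95% interval -0.78 to 1.035). For Col3a1 it was -0.53 (95% interval -1.46 to 0.40).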

How the data were processed

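RNA from each retina was hybridised to 1 Affymetrix array after a 2-cycle amplification. The authors processed the arrays with RMA, per the submitters' processing notes; version and settings are not given in the sources used here. The deposited values were taken as log2, RMA's usual scale; each probe set had a median within 5e-07 of 0 over the 18 arrays. Log base and direction rest on RMA's convention, and signal over background is unknown, so no filter on level was possible and the number of arrays limits precision.

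Probe sets were named from the platform annotation of 2016 (34945 with 1 gene, 932 with several, 9160 unnamed here, 64 controls left out), and 34741 of the 34945 had a gene ID in the RefSeq table. Where a gene had more than 1 (9010 genes), its most variable probe set by interquartile range was kept, without regard to group. limma 3.58.1 in R 4.3.3 fitted 6 group means (12 residual and 5.21 prior degrees of freedom), and p-values were adjusted over 18193 genes by the Benjamini-Hochberg method with a threshold of 0.05. The fit was tested on simulated data.

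Members, lists and comparisons were chosen with earlier results of these data known. The 46 lists name 937 genes, of which 840 were measured and 97 are not used here; 8 of the measured genes were found under an older symbol. Named by rule were the 15 largest differences per direction among genes with an unadjusted p of at most 0.01 and no overlap, 4 members of smallest p per list, and fixed genes of the glucocorticoid response; the rest were chosen after their values were seen. Promoter windows are RefSeq's (GRCm38.p6). Samples were grouped by their titles. The labels give no batch.

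The pairing check correlated the deviations of same-numbered TAA and BSS day 7 arrays (0.427, 0.0405 and 0.13), which did not all exceed 0.1, so replicate numbers were not used as pairs.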

Additional observations from a re-analysis of the deposited data

Results flagged for a closer look

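Of the 197 genes named by rule, 5 changed sides between the days. In these, all TAA arrays lay on one side of their BSS controls at day 7 and all on the other at day 30. Part of the 197 were named for having no overlap at day 7, and the same count over all genes was not made. Over all genes, 4.35% were higher and 4.96% lower without overlap at day 7, beside 5.86% and 7.54% at day 30. None of the changes passed the test of the difference between days (limma, adjusted p at least 0.484). Scgn was higher at day 7 (0.35) and lower at day 30 (-0.64), a day 30 minus day 7 change of -0.99 (unadjusted p = 0.000147, adjusted p = 0.484). Angpt1 had 0.54 at day 7 and -0.35 at day 30, a change of -0.89 (adjusted p = 0.711). Rpl4, a ribosomal protein gene, had 0.33 and -0.57, a change of -0.89 (adjusted p = 0.711). Intu, a planar polarity gene, had -0.48 and 0.35, a change of 0.83 (adjusted p = 0.711). At day 7 its other probe sets gave -0.29 to 0.05. Niban1 had -0.79 and 0.28, a change of 1.07 (adjusted p = 0.775).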

How the results depend on the processing

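Of the 75 genes followed under every alternative, 71 kept their direction in all of them, and 4 did not. The genes passing at an adjusted p of 0.05 for TAA against BSS at day 7 numbered 1 in the report, 3 with the mean of all probe sets (Folh1, Prodh and Etnppl), 2 with quantile normalization (Folh1 and Saa3), 49 with array weights, and 0 with the 6 arrays alone or the 9 day 7 arrays alone. Leaving out 1 array gave 0 to 15, the 15 without TAA replicate 3. Array weights were 0.528, 0.261 and 4.15 on TAA replicates 1 to 3, so that fit leans on replicate 3. At day 30 the count was 0, and 1 with the mean of probe sets, array weights or a robust prior. For the change between days it was 0, 17 with array weights, and 0 to 2 with 1 array left out (2 without TAA day 7 replicate 3). For TAA against DEX it was 1; 2 with quantile normalization, 747 with array weights, 0 with every probe set, centred arrays, a robust prior or the compared groups alone, and 0 to 5 with 1 array left out (5 without TAA replicate 3). Sgk1 turned to 0.007 with quantile normalization and 0.005 with array weights, and Kcnj10 to -0.028 and -0.062. With 1 array left out Per1 ran from -0.167 to 0.013, Sgk1 from -0.089 to 0.029, Aqp4 from -0.049 to 0.754 and Kcnj10 from -0.145 to 0.24. The values of lists without TAA replicate 2 were added after seeing the data. Of 46 list medians, 20 kept their sign in every alternative. The causes were not tested.

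With the replicate number as a block, a pairing the labels do not establish, 0 genes passed for TAA against BSS at day 7 (Folh1 adjusted p = 0.0668), 1 at day 30, 0 for the change between days and 0 for TAA against DEX.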

Other observations

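Some astroglial genes outside the lists above stood among the 98 higher genes, picked here after their values were seen. Their positive direction follows from that choice and is no result about astroglia. In the astrocyte list 7 of 13 genes had a difference above 0 (49.8% of all genes). Mlc1, a membrane protein of astrocyte end feet and Müller glia, had 0.24, 0.94 and 0.14 in TAA retinas, against -0.14, -0.25 and -0.12 in BSS retinas, a difference of 0.61 ± 0.19, and 0.36 without TAA replicate 2. Slc6a11, the glial GABA transporter GAT-3, had 0.44, 0.76 and 0.07 in TAA retinas, against -0.14, -0.14 and -0.17 in BSS retinas, a difference of 0.57 ± 0.17, but 0.08 on the other probe set. TAA replicate 2 was the highest array for both. Plpp3, a lipid phosphate phosphatase of astrocytes, had 0.14, 0.67 and 0.26 in TAA retinas, against -0.25, -0.15 and 0.01 in BSS retinas, a difference of 0.48 ± 0.14, and Psat1, an enzyme of serine synthesis, had 0.12, 0.48 and 0.34 in TAA retinas, against -0.31, -0.02 and 0.03 in BSS retinas, a difference of 0.41 ± 0.14. None of these passed after adjustment, and their day 30 differences were -0.04, -0.14, 0.07 and 0.19.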
